A study of Caenorhabditis elegans with 2 samples.

Results

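The microRNAs (miRNAs) mir-75 and mir-79 of Caenorhabditis elegans are known as a pair whose main products carry the same seed, the stretch from base 2 to base 8 of a miRNA that pairs with its target mRNAs. They were taken from the authors' table by exact name (cel-miR-75 and cel-miR-79 with any arm suffix), which gave 4 of its 375 mature miRNA loci: the 5p and 3p arm of each of the 2 hairpins. The arms are the short RNAs cut from the 5′ and the 3′ side of the hairpin-shaped precursor. The grouping rests on the names. No sequence was compared here, so the shared seed is given as background.

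A miRNA is loaded into an Argonaute protein and lowers the output of mRNAs that pair with its seed. miRNAs that share a seed can therefore act on overlapping sets of mRNAs. miR-79 is the worm relative of the 3p product of mir-9 in flies and vertebrates. In worms it is known to act in the epidermis, where it limits the sugar-chain synthesis genes sqv-5 and sqv-7 and so affects the migration of neurons.

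Small RNA was sequenced from whole worms of the wild-type strain N2, with the age given as Day 1, that had received the agent enoxacin or its vehicle. Enoxacin is a fluoroquinolone antibiotic known to promote miRNA processing in mammalian cells, and the comparison addressed which miRNAs differ in abundance when worms receive it. Each of the 2 groups had 1 library. Per the submitters, 3 independent experiments supplied the worms. Pooling of these into a library is not stated in the labels.

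The vehicle library held 10698845 reads and the enoxacin library 8787665 by the authors' totals, of which mature miRNA loci took 3.74% and 3.78%. Levels are in RPM, reads scaled to these totals, so a single read stands for 0.0935 RPM (vehicle) or 0.114 RPM (enoxacin). With 1 library per group the difference between vehicle and enoxacin has no test, and every interval below is exact, at 95%, and reflects the error of counting alone. In whole worms, fewer cells of a type and less RNA per cell cannot be told apart.

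miR-75-3p was more abundant in the enoxacin library and its partner miR-79-3p was nearly equal. In vehicle miR-75-3p had 103 reads, or 9.63 RPM (7.86 to 11.7). In enoxacin it had 146 reads, or 16.6 RPM (14.0 to 19.5). The 2 counting intervals did not overlap. The ratio of enoxacin to vehicle was 1.73 (1.33 to 2.24).

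In vehicle miR-79-3p had 1065 reads, or 99.5 RPM (93.7 to 105.7). In enoxacin it had 976 reads, or 111 RPM (104 to 118). Its counting intervals overlapped slightly. The ratio was 1.12 (1.02 to 1.22). More reads in total gave miR-79-3p the narrower interval of the pair.

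**Figure D1:**
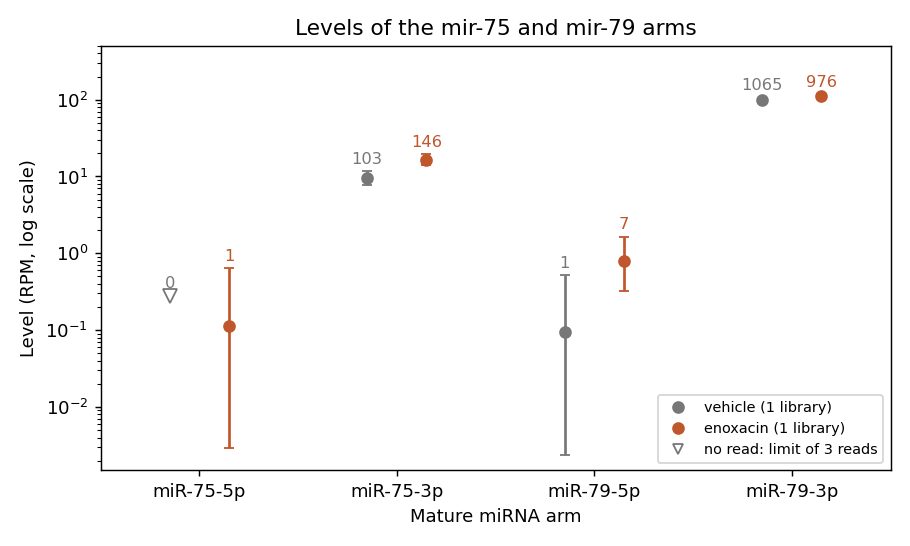
Level in RPM (log axis) of the 4 arms in the vehicle and the enoxacin library, with exact Poisson 95% intervals as bars and read counts as numbers. Both 3p arms stand far above both 5p arms, and miR-75-3p has separate intervals in the 2 libraries, 7.86 to 11.7 and 14.0 to 19.5 RPM.

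A locus was called higher or lower when it had at least 20 reads over both libraries, its ratio passed 1.5-fold and its counting interval excluded a ratio of 1. Of the 4 loci, the 2 that reached the minimum were the 3p arms. miR-75-3p was called higher and miR-79-3p neither. Among all 152 compared loci 20 were called higher, which is 13.2%, and 12 were called lower, which is 7.89%. One call among 2 members is too few to set against these shares.

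The ratios of the pair can be placed among those of all compared loci, whose median was 1.09 with quartiles of 0.884 and 1.35. miR-79-3p lay between the quartiles, with 73 compared loci above it. miR-75-3p lay above the upper quartile, with 21 compared loci above it. Of the 20 loci called higher, 8 had more reads than miR-75-3p.

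**Figure D2:**
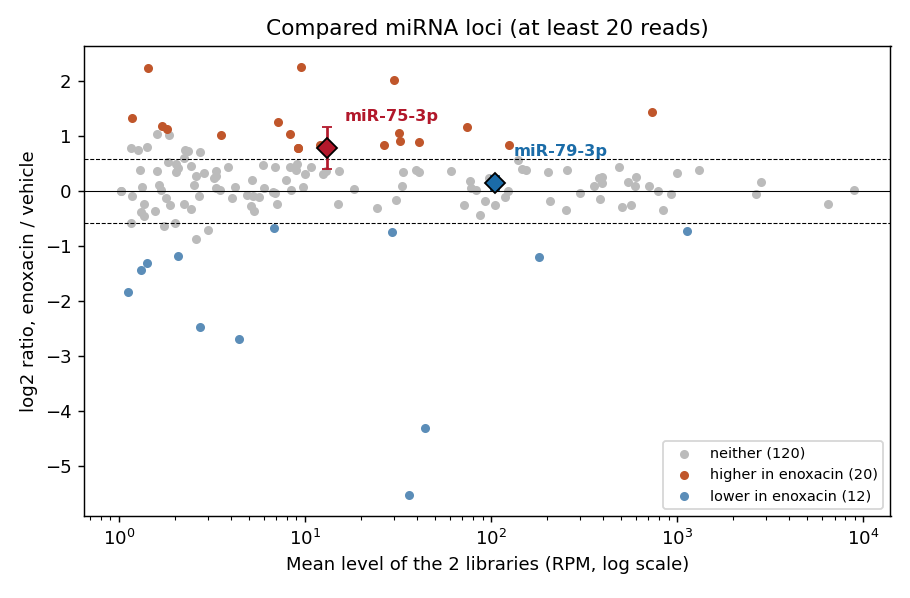
log2 ratio of enoxacin to vehicle (with a pseudocount of 0.5 reads) against mean level in RPM (log axis) for the 152 compared loci, each point 1 locus, with dashed lines at 1.5-fold. miR-75-3p, with its 95% counting interval, is among the 20 loci called higher, and miR-79-3p is close to 0.

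The pair was then compared directly, since a ratio of ratios does not depend on how the libraries are scaled. The miR-75-3p ratio was 1.55 times (1.18 to 2.04) the miR-79-3p ratio. This interval excluded 1 for counting error, and the spread between cultures is unknown. In log2 units, the ratio of miR-79-3p was below that of miR-75-3p by 0.63 (-1.03 to -0.23 for the difference).

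The same difference shows in the make-up of the pair. Both mature 3p arms are 22 nt long, so their reads can be set side by side per length, although library preparation can capture different miRNAs with different efficiency. miR-79-3p had 10.3 times the reads of miR-75-3p in vehicle and 6.68 times in enoxacin. miR-75-3p made up 8.82% (7.25 to 10.6%) of the 1168 reads of both 3p arms in vehicle and 13.0% (11.1 to 15.1%) of 1122 in enoxacin. miR-79-3p was thus the main product of the pair in each library.

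The summed level of both 3p arms, the pool that would carry the common seed, was 109 RPM without and 128 RPM with enoxacin. The ratio of the sums was 1.17 (1.08 to 1.27), which did not pass 1.5-fold, and it was 1.06 (0.979 to 1.16) with TMM, a trimmed mean of the ratios. As shares of all miRNA reads, miR-79-3p took 0.266% in vehicle and 0.294% in enoxacin, and miR-75-3p took 0.0257% and 0.0439%. By read count miR-79-3p was at place 37 of 375 in vehicle and 35 in enoxacin, and miR-75-3p at places 67 and 62.

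How far the ratios follow the scaling differed between the partners. miR-75-3p stayed called as higher under the 4 other scalings, with log2 ratios from 0.65 to 0.77 against 0.79 with the authors' totals, and with its interval above 1 each time. It was not called at a threshold of 2-fold. For miR-79-3p the log2 ratio was 0.16 with the authors' totals and 0.02 with TMM, and its interval included 1 under 3 of the 4 other scalings. Scaling by the median of ratios lowered every log2 ratio by 0.13 (shift of -0.13), and the log2 ratio of miR-79-3p was then 0.03.

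**Figure D3:**
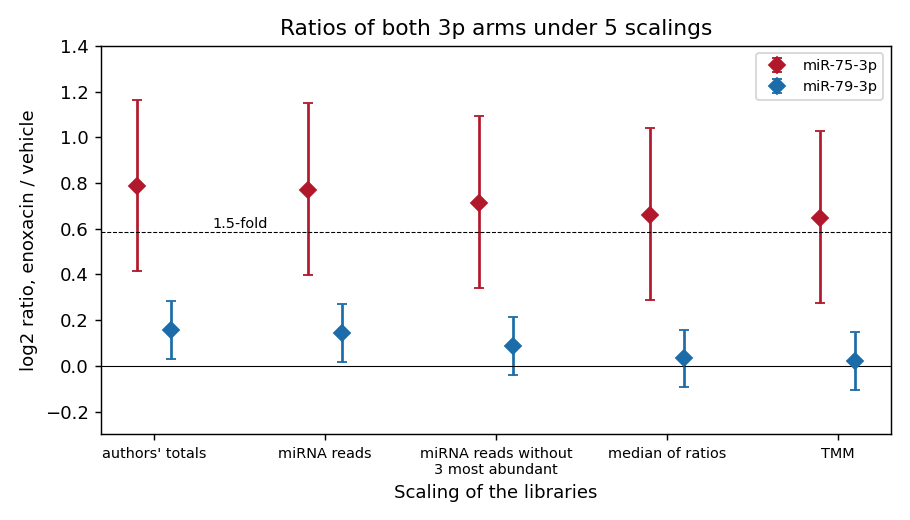
log2 ratio of enoxacin to vehicle for miR-75-3p and miR-79-3p under 5 scalings of the libraries, with 95% counting intervals and a dashed line at 1.5-fold. The points of miR-75-3p stay above the dashed line, from 0.65 to 0.79, and the interval of miR-79-3p includes 0 under 3 scalings.

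The 5p arms were rare in both libraries. miR-79-5p had 1 read in vehicle, 0.0935 RPM, and 7 reads in enoxacin, 0.797 RPM. Its ratio of 8.52 had an interval from 1.09 to 384, so its size is undetermined at this depth. With TMM the interval began at 0.996 and so included 1. In the authors' deposited table this ratio, 8.52, takes place 2 among the 234 loci that have one. With 8 reads in all it was below the minimum for comparison, and 29 loci of the table had exactly 1 vehicle read. miR-75-5p had 0 reads in vehicle, where the limit of 3 reads used for a count of 0 allows up to 0.280 RPM, and 1 read in enoxacin, 0.114 RPM.

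Both hairpins thus gave almost all of their reads from the 3p arm. The 5p arm made up 0.400% (0.0101 to 2.21%) of 250 mir-75 reads and 0.390% (0.169 to 0.768%) of 2049 mir-79 reads over both libraries. By library, the mir-79 5p share was 0.0938% (0.00238 to 0.522%) in vehicle and 0.712% (0.287 to 1.46%) in enoxacin, and these intervals overlapped. The ratio of miR-79-5p was 7.64 times that of miR-79-3p, with an interval from 0.978 to 345 that included 1. With both arms summed, the ratio was 1.74 (1.34 to 2.26) for mir-75 and 1.12 (1.03 to 1.23) for mir-79.

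A scarce minor arm was common among the hairpins of the table. Of 75 hairpins with both arms listed and at least 100 reads, 51 had the 3p arm as the major one. The minor arm took a median of 0.671% of hairpin reads, with quartiles of 0.259% and 2.84%. In this order from the smallest share, mir-79 took place 29 and mir-75 place 30, although mir-79 had many more reads. The place of mir-75 rests on 1 read of its 5p arm. Its interval, 0.0101 to 2.21%, covers both the lower quartile and the median, so being next to mir-79 carries little weight.

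**Figure D4:**
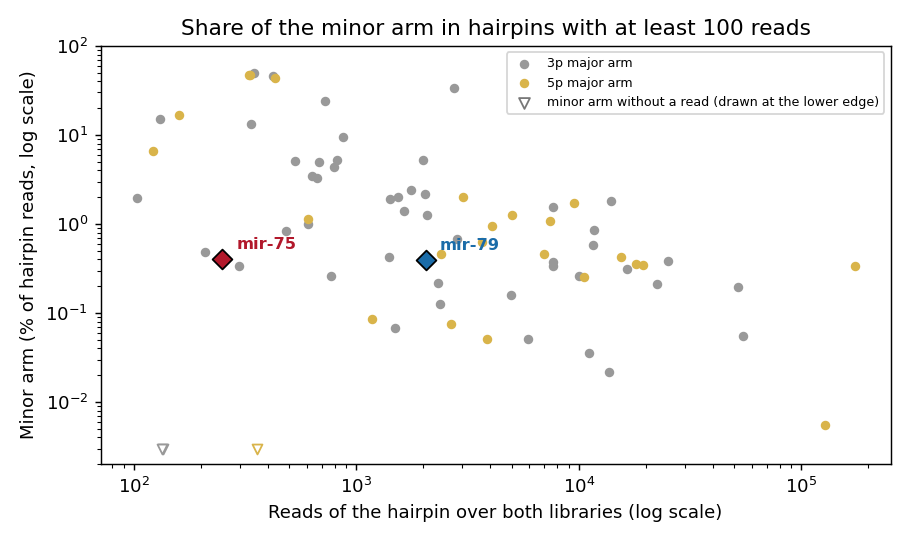
Share of the minor arm in percent (log axis) against reads over both libraries (log axis) for 75 hairpins with at least 100 reads, each point 1 hairpin, coloured by the major arm. mir-75 and mir-79 lie at almost the same height, 0.400% and 0.390%, below the median of 0.671%, where the mir-75 share rests on 1 read.

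The hairpins lie on different chromosomes, both on the plus strand. In the authors' coordinates, taken as build ce10 from the submitters' processing notes, miR-75-5p spans chromosome X from 2372468 to 2372489 and miR-75-3p from 2372506 to 2372527, with 16 bases between them. miR-79-5p spans chromosome I from 9332956 to 9332978 and miR-79-3p from 9332998 to 9333019, with 19 bases between them. miR-79-5p is 23 nt long and the other 3 arms are 22 nt.

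The WBcel235 annotation (Ensembl), a different build searched by hairpin name with no coordinates used, places mir-75 between genes, with no overlapping gene. The nearest protein-coding genes are T24D8.6 and F47G3.3. For mir-79 it lists the non-coding RNA gene C12C8.6 on the opposite strand, with an exon that overlaps part of the hairpin. The handling of strand in counting is not stated in the labels, so reads of C12C8.6 and mir-79 cannot be told apart with certainty. Among other loci, miR-5592-5p and miR-5592-3p, both called higher, overlap on opposite strands, and each held 72 reads (vehicle) and 102 (enoxacin). Another such overlap of these arms held 83 and 89 reads against 75 and 84. miR-356a and miR-356b-3p overlap likewise, and each held 5 and 4. Whether counting ignored strand was not tested. The nearest protein-coding genes to mir-79 are cbl-1 and lin-41, the latter a heterochronic gene known as a target of let-7.

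On chromosome X, the miRNA nearest to mir-75 in the table was mir-74, whose 3p arm ends 3351 bases before the mir-75 arms on the same strand. Vehicle held 239 reads of miR-74-3p (22.3 RPM) and enoxacin 371 (42.2 RPM). The ratio of 1.89 (1.60 to 2.23) was called higher, as that of miR-75-3p was. mir-73 lies 213 bases before mir-74 and was looked at after its values were seen. Of miR-73-3p, vehicle held 1042 reads and enoxacin 946. Its ratio was 1.11 (1.01 to 1.21), which was not called. The 3 hairpins on this stretch were thus not alike, 2 of them being called higher. On the other side, miR-81-3p of mir-81, whose nearer arm lies 58561 bases away, had a ratio of 0.976 (0.927 to 1.03).

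mir-79 had no close neighbour in the table. Its nearest hairpins were mir-1019, 28569 bases away, with 2 reads in vehicle and 0 in enoxacin over both arms, and mir-245, 1445508 bases away. Of miR-245-3p, vehicle held 75 reads and enoxacin 60, which gave 0.974 (0.682 to 1.39) as the ratio.

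**Figure D5:**
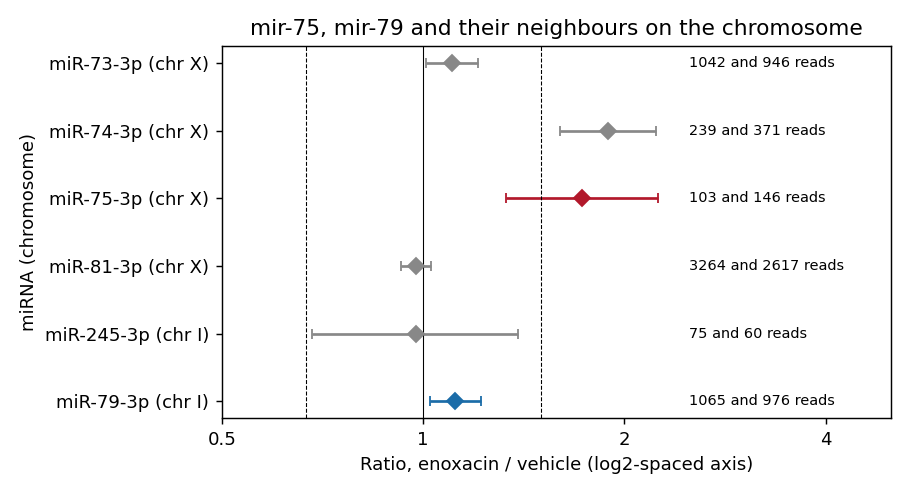
Ratio of enoxacin to vehicle (log2-spaced axis) with 95% counting intervals for miR-75-3p, miR-79-3p and the 3p arms of neighbouring hairpins on chromosomes X and I, with vehicle and enoxacin reads at the right and dashed lines at 1.5-fold up and down. miR-74-3p at 1.89 and miR-75-3p at 1.73 lie beyond 1.5-fold, and the others lie between 0.974 and 1.12.

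The miRNAs most like each partner were taken as the 3 nearest in level, by Euclidean distance over log2(RPM + 0.1) in the 2 libraries. For miR-75-3p the nearest was miR-240-3p, at a distance of 0.19, with levels of 8.60 and 15.5 RPM (vehicle, then enoxacin) and a ratio of 1.80 (1.37 to 2.37). It was followed by miR-58-5p at 0.30, with a ratio of 1.29 (0.997 to 1.67), and miR-239a-5p at 0.34, with a ratio of 1.24 (0.954 to 1.61). Of these 3, miR-240-3p was called higher.

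For miR-79-3p the nearest was miR-73-3p, at a distance of 0.05, with levels of 97.4 and 108 RPM (vehicle, then enoxacin). It was followed by miR-41-3p at 0.18, with a ratio of 1.18 (1.08 to 1.29), and miR-250-3p at 0.29, with a ratio of 0.838 (0.766 to 0.916). None of these 3 was called. Both libraries enter this distance, so a near locus tends to have a similar ratio by construction. The ratios and calls of these loci are thus description, with no independent comparison in them.

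miR-79 belongs to the miRNAs conserved across bilaterian animals. A fixed list of 12 other conserved miRNAs, whose range of conservation was not checked, was set beside it, each by its more abundant arm. All 12 were compared, 0 were called higher, 2 lower and 10 neither, with a median ratio of 0.954 against 1.09 over all compared loci. Over all compared loci 13.2% were called higher and 7.89% lower, and 12 miRNAs are too few to set against these shares. The list does not hold all conserved miRNAs, so these counts describe the 12 alone. Outside it, miR-58-3p of the bantam-related family was called higher, with a ratio of 2.73 (2.64 to 2.83). The highest ratio of the 12 was that of let-7-5p, 1.48 (1.37 to 1.60), which was below 1.5-fold. The lower ones were miR-87-3p, with a ratio of 0.610 (0.593 to 0.627), and miR-57-5p, a relative of miR-10, at 0.437 (0.405 to 0.470). The other most abundant ones were the lifespan-promoting miR-71-5p, at 1.01 (0.976 to 1.04), the muscle miRNA miR-1-3p at 0.902 (0.862 to 0.945), and lin-4-5p, a regulator of larval timing, at 1.18 (1.13 to 1.24). For mir-34 the more abundant arm was miR-34-3p, so the count leaves out miR-34-5p, the conserved arm, which was called lower with 900 reads in vehicle against 37 in enoxacin. In level, 7 of the 12 exceeded miR-79-3p in vehicle and 6 in enoxacin.

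The label of whole worms was set beside the reads of miRNAs known from certain tissues or stages. Muscle, intestine, epidermis and glia, embryos and the late larva or adult were each represented in both libraries, while of the 2 neuronal miRNAs miR-124-3p had reads and lsy-6 had none. The 8 embryonic mir-35 to mir-42 miRNAs summed to 5643 RPM (vehicle) and 5336 RPM (enoxacin). The miRNA of epidermis and glia, miR-228-5p, stood at 122 RPM (vehicle) and 123 RPM (enoxacin). The intestinal miR-60-3p stood at 45.6 RPM (vehicle) and 103 RPM (enoxacin). Its ratio was 2.26 (2.02 to 2.53), so it was higher together with miR-75-3p. Its part in the miR-75-3p difference was not tested.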

How the data were processed

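Small RNA libraries were made with a SOLiD kit from TRIzol-extracted RNA, per the labels' protocols. The submitters' processing notes name Bowtie2, bedtools and build ce10, with no version, role or filter stated in the labels. In 1 table the authors deposited a raw read count per mature miRNA locus and library beside RPM values. The table also holds the enoxacin to vehicle ratio and its log2, as the authors computed them from the RPM values. The deposited ratio equalled the one computed here, while the log2 ratios here differ from the deposited ones by the pseudocount. The deposited column headed as control was taken as vehicle.

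Library totals were recovered from the count and RPM columns. Ratios have exact conditional binomial (Clopper-Pearson) intervals at 95%, levels exact Poisson intervals, and the ratio of ratios an exact conditional odds-ratio interval. log2 ratios used a pseudocount of 0.5 reads. The upper limit for a count of 0 was 3 reads. Intervals treat reads as independent, but without molecular identifiers 1 molecule can give several reads. No p-value was computed. The intervals and calls were tested on simulated data that held counting error alone. That simulation could not test them against spread between libraries or against several reads from 1 molecule. The members and lists were chosen with earlier results of these data known.

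Named miRNAs are all arms of both hairpins, the 3 loci nearest in level to each 3p arm and the nearest hairpin on either side. From the conserved list, the 4 most abundant, any called and the highest ratio are named. Outside that list, miR-58-3p was named after its values were seen. Loci overlapping on opposite strands were named for strand and for their place among the calls. A search for further loci with the same seed, also planned, was not made, since no sequence was used here. Distances are between listed arms. The alternatives tried were 4 scalings (TMM from edgeR 4.0.16; the median of ratios; the miRNA table's sum, with and without its 3 most abundant miRNAs), a pseudocount of 1, other minimums and thresholds, and arms summed. Python 3.11.15, numpy 2.4.6, pandas 2.3.3, scipy 1.17.1 and R 4.3.3 were used.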

Additional observations from a re-analysis of the deposited data

How the results depend on the processing

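The log2 ratio of miR-79-3p minus that of miR-75-3p was -0.63 with the settings of the report, under the 4 scalings, from which it cannot differ by construction, and with both arms summed, and -0.625 with a pseudocount of 1. With TMM the log2 ratio of miR-79-3p moved from 0.16 to 0.021 and that of mir-79 with both arms summed from 0.17 to 0.030, both outside their counting intervals, which follows from TMM shifting every log2 ratio by -0.14. The call of miR-75-3p was kept under the 4 scalings and the pseudocount of 1 and lost at 2-fold. Over all compared loci, 20 higher became 12 at 2-fold and 35 at the lower alternative threshold, and 12 lower became 6 with a minimum of 100 reads, since fewer loci were compared. Of 49 values under alternatives these 5 were labelled as moved and 44 were not, and no log2 ratio changed direction. The 44 include the differences that scaling cannot change. They also include counts that did change, such as 20 higher becoming 29 at 1.5-fold alone. The tally is thus no measure of stability. No paired analysis was possible because each group had 1 library, and for the same reason no replicate could be left out. Depth limits the 5p arms, with 8 reads for miR-79-5p and 1 for miR-75-5p.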

Other observations

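Leaving out the pair, 45 loci on chromosome X were compared, and 7 of them were called higher and 5 lower, beside 13.2% and 7.89% over all 152 compared loci. The 7, like the 13.2%, include both of the overlapping miR-5592 loci that held equal counts. Whether these loci hold the same reads was not tested. On chromosome I, 16 were compared and 0 were called in either direction. The median ratio was 1.24 on chromosome X and 1.03 on chromosome I, and on the other chromosomes it was 0.963 on II, 1.27 on III, 1.12 on IV and 1.24 on V. No difference between chromosomes was tested, and loci of a cluster or family are not independent.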
